A study of Arabidopsis thaliana with 44 samples.

Results

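The genes of flavonoid synthesis described here are 10 of the 32833 Arabidopsis genes in the expression tables. They were chosen by their gene identifiers and not by a rule on measured values, although earlier results of these data were known. They are CHS (AT5G13930), CHI (AT3G55120), F3H (AT3G51240), F3'H (AT5G07990), FLS1 (AT5G08640), DFR (AT5G42800), LDOX (AT4G22880), BAN (AT1G61720), TT8 (AT4G09820) and MYB12 (AT2G47460). By gene name they hold 78 of the 188282 m6A sites listed for the tissues and 28 of the 50458 sites listed for the mta experiment. Transcripts and m6A were measured in 9 tissues of the Col-0 accession kept at 22 °C under a daily light period of 16 h. Seedlings were taken at day 7 and shoots and roots at day 14 from Murashige and Skoog plates, and rosette leaf (labelled rosetta leaf) at day 30 from soil. Cauline leaf (labelled canline leaf), stem, flower and silique were taken after flowering, and seeds were collected fully dry. A second experiment compared Col seedlings with mta seedlings of day 8. The mta plants lack the m6A methyltransferase MTA except for an ABI3::MTA transgene, whose promoter is active mainly in the embryo, and the sources used here give day 7 for seedlings in general without saying whether this covers the Col seedlings beside them. Each group had 2 biological replicates, and each replicate had an untreated input library and a library treated with the dimethyltransferase MjDim1, which makes m6A readable as mutations in m6A-SAC-seq.

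Flavonoids are made from the phenylpropanoid p-coumaroyl-CoA. Chalcone synthase (CHS), chalcone isomerase (CHI), flavanone 3-hydroxylase (F3H) and flavonoid 3'-hydroxylase (F3'H) carry out the early steps, after which flavonol synthase (FLS1) leads to flavonols, and dihydroflavonol reductase (DFR) and leucoanthocyanidin dioxygenase (LDOX) lead to anthocyanidins. In Arabidopsis, anthocyanidin reductase (BAN) turns anthocyanidins into the flavan-3-ols of the proanthocyanidins that brown the seed coat, the bHLH protein TT8 activates the late genes together with MYB partners and TTG1, and the R2R3-MYB protein MYB12 activates the flavonol genes.

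Input libraries of the tissues held 3355823 to 6903234 counts and treated libraries 10382637 to 14693950. Levels of the tissues are given as RPKM, in which counts are divided by the length of the gene and by the library size, here scaled by the TMM factors of edgeR. These factors lay from 0.618 in seed replicate 1 and 0.699 in rosette leaf replicate 1 to 1.29 in shoot replicate 2, and the 10 most abundant genes took 21.6% of the counts in the first, 14.3% in the second and 5.71% in the third. The storage protein gene CRA1 was at 29842 RPKM in seed and 5352 in silique, so that silique libraries held seed RNA. Of the root genes, PYK10 was at 6002 RPKM in root, 1411 in seedling and 308 in shoot. In leaves, stem, flower, silique and seed it was at most 0.255. COW1 was also highest in root (16.3), whereas SCR was at 8.29 in root and 19.5 in rosette leaf. In such bulk samples, fewer cells of a type and less RNA per cell cannot be told apart. All 10 genes passed the filter on low counts, but DFR, LDOX, BAN and TT8 passed only through silique and flower libraries, so that they had to differ, and 6 of the 10 reached 10 reads in at least 2 libraries of the other tissues. Each of the 10 differed between tissues in the edgeR quasi-likelihood F test, as did 99.3% of all genes tested.

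The 10 genes were highest in silique, except MYB12, which was highest in root, and FLS1, whose difference between root and silique did not pass the test. In the test of silique against the mean of the other 8 tissues all 6 genes that passed the filter outside silique and flower were called higher (edgeR quasi-likelihood test, called at a Benjamini-Hochberg adjusted p under 0.05), while 42.5% of all genes were called higher in that contrast. In every contrast of this kind the mean of the other 8 is taken on the log scale. Tissues with few or no reads pull it down. A gene can therefore be called higher in a tissue whose RPKM lies below the plain mean RPKM of the others. The calls of DFR, LDOX, BAN and TT8 in the same direction follow from the filter and are not counted. All 3 embryo markers (CRA1, CRC, OLEO1) and all 3 seed coat genes (STK, MUM2, MUM4) had reads in silique, with STK at 38.7 RPKM in silique, 9.25 in flower and 0.0733 in seed, while MUM2 was higher in cauline leaf (226) than in silique (35). The part of seed and seed coat RNA in the silique levels was not tested. In flower, the same 6 genes were also called higher than in the mean of the other 8, against 41.5% of all genes, but 5 of the 6 were called lower in flower than in silique, against 28.8% of all genes.

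**Figure D1:**
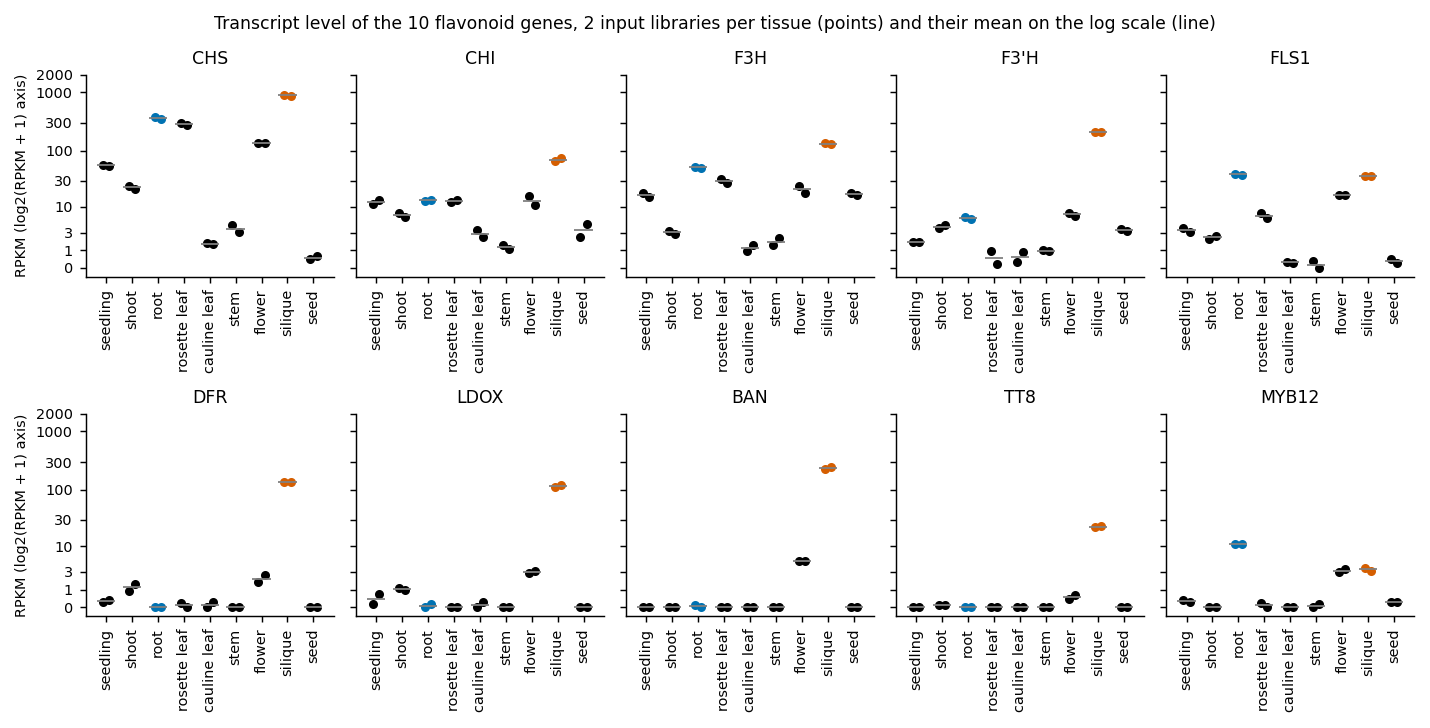
Level of the 10 genes in each tissue, as RPKM on a log2(RPKM + 1) axis, with 1 point per input library (2 per tissue) and a line at their mean on that axis; silique is orange and root is blue. DFR, LDOX, BAN and TT8 rise above 10 RPKM in silique only, whereas CHS, F3H and FLS1 are also high in root and MYB12 peaks there.

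CHS makes the chalcone from which all flavonoids derive. In the RefSeq annotation of TAIR10.1, from which all gene positions are taken, it lies on the plus strand of chromosome 5 (4488476 to 4490264) with 2 exons. Its level was 902 and 853 RPKM in the silique libraries, 377 and 344 in root, 296 and 274 in rosette leaf, and 135 and 135 in flower. It was 56 and 54.7 in seedling, 24.1 and 21.7 in shoot, 4.33 and 3.16 in stem and 1.64 and 1.52 in cauline leaf. Dry seed held 2 and 3 reads of CHS. No library of one tissue overlapped that of the next in this order, and all 8 steps between neighbouring tissues passed the test. Over the same 8 pairs of tissues 61.9% of the tests of all genes did, and over the 36 pairs of the 9 tissues the share ranged from 45.7 to 79.2%. Here and for the genes below, the steps join tissues that are closest in a gene's own order of levels. The same pairs need not be neighbours in other genes. A share below that of all genes is therefore favoured by the choice of pairs and does not show that a gene varies less. The step from silique to root was 1.28 ± 0.05 on the log2 scale (SE, adjusted p = 1.19e-137), and that from root to rosette leaf only 0.34 ± 0.06 (adjusted p = 2.94e-09). In TPM, which leaves out the scaling factors, root was at 722 and 657 and rosette leaf at 310 and 294, so the small size of that step rests on the scaling. Over the 18 input libraries, the genes whose log2(CPM + 1) was most like that of CHS were PCNA, POLA2 and ATBARD1 (Pearson's r from 0.969 to 0.975, against a median of 0.310 over all genes). These 18 libraries are pairs from 9 tissues, so such a correlation describes the order of the tissues and carries no test.

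CHI closes the chalcone to a flavanone. The gene is on the minus strand of chromosome 3 (20430059 to 20431597) with 4 exons. Its silique libraries held 65.2 and 74.7 RPKM, and root (13.1 and 13.6), flower (15.8 and 10.6), rosette leaf (12.4 and 13.5) and seedling (11.5 and 13.3) overlapped, and none of the 3 steps between them passed the test. Without the scaling factors, TPM was 13.0 and 14.5 in rosette leaf against 25.0 and 26.0 in root, 29.4 and 19.9 in flower and 20.3 and 23.5 in seedling, so that the overlap of rosette leaf with these tissues rests on the scaling. Lower levels were found in shoot (7.69 and 6.55), seed (2.44 and 4.68), cauline leaf (3.48 and 2.32) and stem (1.5 and 1.12). Silique exceeded root by 2.39 ± 0.11 (log2, adjusted p = 1.35e-101), and 4 of the 8 steps between neighbouring tissues passed the test, against 61.9% of the tests of all genes. Its closest genes were AT1G23205, AT5G17160 and OCT3 (r from 0.944 to 0.957, 18 libraries).

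F3H hydroxylates flavanones to dihydroflavonols, the branch point to flavonols and anthocyanidins, and lies on the plus strand of chromosome 3 (19025192 to 19026872, 3 exons). Its level was 134 and 129 RPKM in silique, 52.8 and 49.9 in root, 31.6 and 26.9 in rosette leaf and 24.5 and 18.1 in flower. Dry seed, in which CHS was nearly absent, held 17.8 and 16.8 RPKM of F3H, close to seedling with 18.2 and 15.3. The difference between seed and seedling was 0.05 ± 0.15 (log2, adjusted p = 0.801). Shoot (3.29 and 2.86), stem (1.42 and 2.20) and cauline leaf (0.925 and 1.5) were lowest. Without the scaling factors, mean TPM put flower (39.9) above rosette leaf (31.0) and seedling (29.6) above seed (13.8), so these steps in the order rest on the scaling. In all, 6 of the 8 steps passed the test (64.5% for all genes). The most similar genes were mMDH2, VDAC3 and PGK3 (r from 0.913 to 0.946).

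F3'H adds the second hydroxyl of the B ring, which separates quercetin from kaempferol. It is on the plus strand of chromosome 5 (2560328 to 2563137, 4 exons). Silique held 211 and 212 RPKM, and the next tissue, flower, 7.79 and 6.77, a difference of 4.85 ± 0.09 on the log2 scale. Root (6.4 and 5.76) was not called different from flower (0.26 ± 0.17, adjusted p = 0.158), followed by shoot (3.81 and 4.38), seed (3.69 and 3.24) and seedling (1.75 and 1.78). The step from seed to seedling passed the test, but without the scaling factors TPM was 2.92 and 2.62 in seed and 3.08 and 3.16 in seedling, so its direction rests on the scaling. Stem, rosette leaf and cauline leaf had 1 to 9 reads per library, and 3 of the 8 steps passed (66.3% for all genes). Silique thus held 89.5% of the level summed over the 9 tissues, against 50.4% for CHS, 51.1% for CHI and 48.1% for F3H. AT1G09380, AGL15 and BHLH113 were its closest genes (r from 0.952 to 0.967).

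FLS1 oxidises dihydroflavonols to flavonols. It lies on the plus strand of chromosome 5 (2803833 to 2805606, 3 exons) and belongs to a small gene family, so reads shared with its relatives are a limit that the sources used here do not settle. It was at 39.9 and 38.2 RPKM in root and 35.5 and 35.7 in silique, a difference that did not pass the test (0.14 ± 0.09, adjusted p = 0.152). Flower followed with 16.5 and 16.4, rosette leaf with 7.60 and 6.05, seedling with 3.85 and 3.14 and shoot with 2.11 and 2.56. The step from rosette leaf to seedling passed the test. Without the scaling factors, TPM was 7.97 and 6.50 in rosette leaf and 6.78 and 5.56 in seedling, which overlap, so the size of that step rests on the scaling. Cauline leaf, seed and stem held 0 to 3 reads, and 4 of the 8 steps passed the test (60% for all genes). RPA3A, PCNA and RPL35AD were most like it (r from 0.964 to 0.969), and among the 10 genes the closest was CHS (r = 0.941).

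DFR and LDOX carry out the late steps towards anthocyanidins. DFR is on the minus strand of chromosome 5 (17164093 to 17166032, 6 exons) and LDOX on the minus strand of chromosome 4 (12004726 to 12006209, 2 exons in the transcript AT4G22880.2, to which its m6A sites are assigned). DFR was at 138 and 137 RPKM in silique and at 1.65 and 2.55 in flower, a difference of 6.04 ± 0.14 (log2), and LDOX at 112 and 121 against 2.81 and 3.21, a difference of 5.28 ± 0.14. Shoot held 8 and 14 reads of DFR and 9 and 8 of LDOX. In root, where CHS and FLS1 were abundant, DFR had no read in either library and LDOX 0 and 1. With 3 reads per library as the floor, silique was at least 203-fold to 468-fold higher in DFR than the 3 tissues without a read (root, stem and seed), and at least 159-fold to 245-fold higher in LDOX than rosette leaf, stem and seed. For each gene 2 of the 8 steps passed the test (62.6 and 63.1% for all genes), and at 2 other steps both tissues were without a read. LDOX was the gene most like DFR among all genes tested, and the reverse, with r = 0.995 over the 18 libraries. The next were dVPE (r = 0.986) and AT3G02670 (0.985) for DFR, and DTX41 (0.986), which is the proanthocyanidin precursor transporter TT12, and dVPE (0.985) for LDOX.

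BAN diverts anthocyanidins to the proanthocyanidins and is known for its expression in the endothelium, the inner layer of the seed coat. It lies on the minus strand of chromosome 1 (22790966 to 22792803, 6 exons). Silique held 229 and 242 RPKM and flower 5.25 and 5.14, a difference of 5.50 ± 0.11 (log2). Of the other 14 input libraries, 1 root library had 1 read and 13 had none. Silique was at least 327-fold to 675-fold higher than the 6 tissues without a read. The steps from silique to flower and from flower to root passed the test, or 2 of 8 (59.5% for all genes). SPH5, AT3G17152 and AT2G24693 were the most similar genes (r = 0.999 for each).

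TT8, which activates DFR and BAN with its partners, is on the plus strand of chromosome 4 (6181881 to 6186523, 7 exons). Its silique libraries held 22.1 and 23.0 RPKM, from 261 and 294 reads, and flower 0.357 and 0.611, from 4 and 6 reads, which is a difference of 5.53 ± 0.25 (log2, adjusted p = 3.19e-103). Shoot had 1 read in each library and the other 6 tissues had none, so that silique was at least 43.9-fold to 101-fold higher there. Again 2 of the 8 steps passed (60.4% for all genes), and at 5 both tissues were without a read. Among the 10 genes TT8 was closest to DFR (r = 0.983). AT1G54445, AT7 and AT5G32619 were the most similar of all genes (r from 0.998 to 0.999).

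MYB12, on the plus strand of chromosome 2 (19476326 to 19479597, 3 exons), departed from the other regulator. It was at 11 and 11.2 RPKM in root, from 127 and 110 reads, and at 3.75 and 3.17 in silique and 2.94 and 3.48 in flower. Root exceeded silique by 1.68 ± 0.21 (log2, adjusted p = 7.79e-16), and the step from silique to flower did not pass the test (0.11 ± 0.29, adjusted p = 0.771). The remaining tissues held 0 to 3 reads, with none in shoot and cauline leaf. The steps that passed, 2 of 8 (66% for all genes), were those from root to silique and from flower to seedling. Its course over the libraries was closer to that of FLS1 (r = 0.875) than to that of DFR (0.384), LDOX (0.421), BAN (0.490) or TT8 (0.415), and the most similar of all genes were AT2G02050, AT3G59850 and AT5G08250 (r from 0.968 to 0.977).

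**Figure D2:**
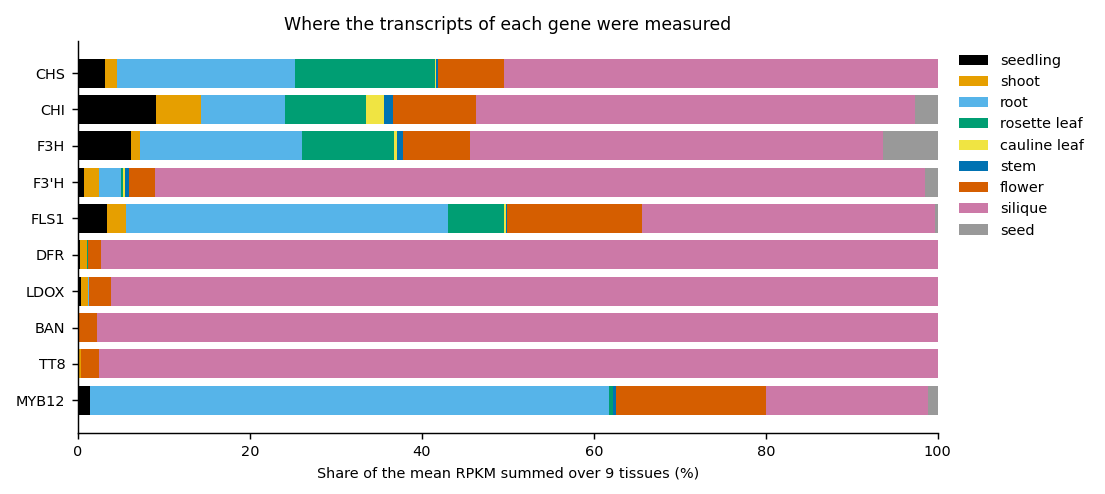
Share of each tissue in the mean RPKM of a gene summed over the 9 tissues, in percent, with 1 bar per gene and 1 colour per tissue. Silique makes up 96.2 to 97.8% of DFR, LDOX, BAN and TT8, whereas root makes up 60.3% of MYB12 and 37.4% of FLS1.

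In root, CHS, CHI, F3H, F3'H, FLS1 and MYB12 were called higher than in the mean of the other 8 tissues, and 43.7% of all genes were. The log2 differences were 3.88 ± 0.05 for CHS, 2.28 ± 0.08 for F3H, 0.95 ± 0.16 for F3'H and 0.75 ± 0.14 for CHI. FLS1 and its activator MYB12 were present in root, whereas the MYB12 relatives MYB11 and MYB111 had no read and 1 read there. DFR, LDOX, BAN and TT8 together had 2 reads in the 2 root libraries. Compared directly, CHS, CHI, F3H and F3'H, or 4 of the 6 genes that passed the filter outside silique and flower, were called lower in root than in silique (40.1% of all genes) and MYB12 higher (34.1%). Against shoots, also taken at day 14, 6 of the 10 genes were higher in root and DFR and LDOX were higher in shoot, when 37.5% and 33.5% of all genes were called in these directions. In shoots DFR and LDOX were also called higher than in the log-scale mean of the other 8 tissues (36.7% of all genes). CHS and F3H were called lower (17.1%). Mean levels of DFR and LDOX were 1.21 and 1.02 RPKM in shoot and 138 and 117 in silique, so these calls do not mean a level above the plain mean. In the treated libraries, where shoot was at 0.719 and 0.530 RPKM of DFR and 0.260 and 0.411 of LDOX, neither was called higher in shoot, and 2 of the 10 genes were with treated replicate 1 of rosette leaf left out. In seedlings CHS, CHI and F3H were called higher than in the mean of the other 8 tissues (37.2% of all genes) and F3'H lower (19.3%). Rosette leaf carried CHS, CHI, F3H and FLS1 above the mean of the other tissues, with 30% of all genes called higher, carried F3'H below it, with 23.7% called lower, and had no read of LDOX, BAN or TT8 in its input libraries. Cauline leaf and stem were the poorest tissues: 5 genes (CHS, CHI, F3H, F3'H and FLS1) were called lower in each, where 22% and 19% of all genes were, and none was called higher in them, although 34.4 and 35.1% of all genes were.

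Dry seed was lower than silique in all 6 genes that passed the filter outside silique and flower, and 48.8% of all genes were called in that direction. F3H differed least, with a mean of 132 RPKM in silique and 17.3 in seed. It was the only one of the 10 called higher in seed than in the mean of the other 8 tissues (0.51 ± 0.14, adjusted p = 0.000375), a call made for 32% of all genes and not made when total counts were used without scaling factors. CHS, CHI and FLS1 were called lower in seed, as were 41.6% of all genes. DFR, LDOX, BAN and TT8 had no read in either seed library.

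Other genes of the pathway were taken from a list of 36, of which 29 passed the filter. In silique 26 of the 29 were called higher than in the mean of the other tissues and 1 lower, where 42.5 and 20.5% of all genes were. In root 16 were higher and 3 lower, against 43.7 and 28.2% of all genes. Some of the 29 passed the filter through silique alone, as the late genes did, so the first count is a description. The largest differences in silique were in TT10, a laccase-like oxidase of the seed coat, with a mean of 214 RPKM in silique and at most 0.684 elsewhere, in TT19, a glutathione transferase needed for anthocyanin and proanthocyanidin transport, with 67.5 and at most 2.21, and in TT12, with 14.9 and at most 0.799. In root they were in FLS3, a relative of FLS1, with a mean of 32.1 RPKM in root and 4.24 in silique, in GL3, a bHLH relative of TT8 known from trichomes and root hairs, with 2.53, and in PAL1, which opens the phenylpropanoid pathway, with 289 in root and 356 in stem. Of regulators picked after their values were seen, TT2, the MYB partner of TT8 in the seed coat, was at 11.7 RPKM in silique and at most 0.590 elsewhere, while the MYB12 relatives MYB111 and MYB11 were highest in flower (6.79) and in silique (10.8).

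The window from 250 bases before to 50 after the annotated start was searched for motifs of light and MYB response in RefSeq (TAIR10.1). The G-box CACGTG, which reads the same on both strands, was present in 6 of the 10 genes (CHS, CHI, F3H, DFR, BAN and MYB12) and in 7.68% of 27443 protein-coding genes. The motif ACCTANC, searched on both strands, was in none of the 10 windows and in 6.55% of all, which says only that these letters are not there.

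Of the 78 listed m6A sites, 76 were called in at least 1 tissue, meaning that the authors had marked them as passing there and that 20 or more reads covered them. They fell in 9 of the 10 genes and MYB12 had none. There were 13 sites in TT8, 11 in LDOX, 10 in F3'H, 9 each in FLS1 and DFR, 8 each in CHS and F3H, 5 in BAN and 3 in CHI. Each site has 1 value per tissue, in which the replicates are pooled, so no replicate error can be given. The m6A fraction is calibrated by the authors and has no counting interval. In all, 67 sites lay in the coding sequence (CDS) and 9 in the 3′ UTR, or 88.2 and 11.8%, while of all called sites in mRNA regions 61.5% lay in the CDS and 35.6% in the 3′ UTR. The most frequent 5-base motif was AGACA, with 13 sites (17.1% against 10.1% of all called sites), followed by AGAGA with 8 (10.5 against 4.54%).

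The sites on which the comparisons turn are shown as 21 bases of the transcript strand from the TAIR10.1 reference, 5′ to 3′, with the 5-base motif around the modified A in capitals. They are named by their distance in nucleotides from the 5′ end of the transcript. The first set holds, for CHS, F3H, F3'H and FLS1, the site with the highest mean fraction among those called in 2 or more tissues. CHI, DFR, LDOX, BAN and TT8 have no such site, and their highest site in silique is shown, a choice made after the values were seen.
CHS 583 (chr5:4489134-4489154, plus strand, exon 2, CDS): tggacaccAGACAggacatcg
F3H 944 (chr3:19026215-19026235, plus strand, exon 2, CDS): caatggcaAGACAtggattac
F3'H 1146 (chr5:2562264-2562284, plus strand, exon 3, CDS): aatgaatcAGACAtcgctcag
FLS1 397 (chr5:2804219-2804239, plus strand, exon 1, CDS): caagtggtTAACCacgggatt
CHI 855 (chr3:20430306-20430326, minus strand, exon 4, CDS): tcagctaaTGATGaagaacaa
DFR 1252 (chr5:17164351-17164371, minus strand, exon 6, CDS): atgtaacaAGACAgaaacggg
LDOX 411 (chr4:12005789-12005809, minus strand, exon 1, CDS): accatggaATACCagctgatc
BAN 552 (chr1:22792001-22792021, minus strand, exon 4, CDS): ttctagggTTACCcaatctcg
TT8 1819 (chr4:6186327-6186347, plus strand, exon 7, 3′ UTR): atgtattaAGACAtcagttac
AGACA is the motif in 5 of these 9 sites, while FLS1 397, BAN 552 and LDOX 411 share an A followed by CC.

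Silique gave most of the calls. All 78 sites had at least 20 reads there, from 33 to 8149, and 69 were called, or 88.5% of them against 46.1% of all listed sites of that depth. By comparison 45 sites reached 20 reads in flower and 11 were called (background 36.6%), 39 and 7 in root (29%), 24 and 8 in seedling (36.6%), 41 and 6 in rosette leaf (20.6%), 19 and 5 in shoot (40.5%) and 12 and 2 in seed (33.7%). Cauline leaf and stem had 1 site each at that depth and no call, against 41.9 and 25.8% of all listed sites. A site enters the list when it passes in some tissue, and for these genes that tissue is mostly silique. Neither the share in silique nor the shares in the other tissues are therefore free of how the list was made. For DFR, LDOX, BAN and TT8 no tissue but silique gave a call, so their high share there follows from the list and is a description. Of the 76 called sites 65 were called in 1 tissue only (85.5%, against 53.2% of all called sites), and none in all 9. Of these 65, 58 were called in silique, 28 of which had at least 20 reads in another tissue without being called there. For LDOX 631 and BAN 552 the only such tissue was rosette leaf (22 and 38 reads), whose depth for these genes is taken up below and was not read as expression.

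**Figure D3:**
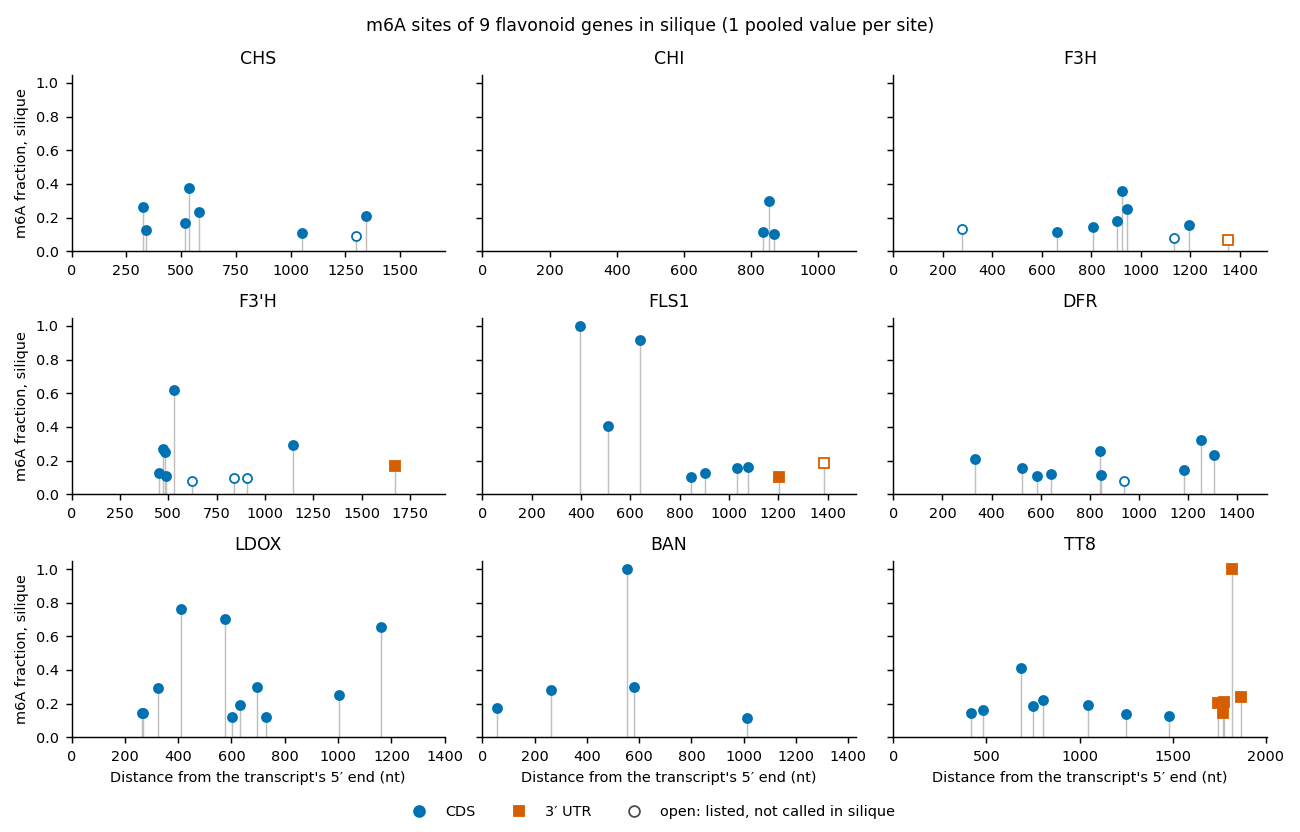
m6A fraction in silique (y axis, 1 pooled value per site) against the distance of the site from the 5′ end of the transcript in nucleotides (x axis, drawn to the length of the annotated transcript) for the 9 genes with sites. Blue circles are CDS sites, orange squares 3′ UTR sites, and open symbols were listed but not called in silique; 7 of the 62 CDS sites called in silique lie above a fraction of 0.5.

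In silique the fractions of the called sites ranged from 0.101 to 1.00 with a median of 0.189, against 0.281 over all sites called there. LDOX had 3 sites of high fraction, at 411 nt (0.761, 246 reads), 575 nt (0.703, 306 reads) and 1162 nt (0.658, 713 reads), and 8 others between 0.118 and 0.296. BAN 552 was listed at 1.00 from 835 reads, whereas the AGACA sites BAN 581 and BAN 264 were at 0.298 and 0.284 from 893 and 1005 reads. TT8 1819 in the 3′ UTR was also listed at 1.00, from 39 reads, and TT8 688 in the CDS at 0.411 from 72 reads. TT8 held 5 of the 9 sites of the 3′ UTR, the others being in FLS1 (2), F3H (1) and F3'H (1). The highest site of DFR was DFR 1252 (0.320, 486 reads), that of F3'H lay at 529 nt (0.619, 776 reads), and that of CHI was CHI 855 (0.299, 165 reads).

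Of the sites called in 2 or more tissues, 4 were in CHS, 3 in F3H, 3 in FLS1 and 1 in F3'H. CHS 583 was called in 6 tissues, at 0.256 in seedling (295 reads), 0.195 in shoot (133), 0.10 in root (3344), 0.130 in rosette leaf (1016), 0.215 in flower (522) and 0.232 in silique (3937). Root and rosette leaf were thus lowest at the greatest depths after silique. CHS 518 was called in 5 tissues between 0.111 in rosette leaf and 0.169 in silique, CHS 325 in 4, between 0.125 in root and 0.265 in silique, and CHS 1344 in 4, between 0.112 in root and 0.210 in silique. In F3H, site 903 was called at 0.219 in seedling, 0.155 in flower, 0.179 in silique and 0.158 in seed, the tissue that held F3H but hardly any CHS transcripts. Site 944 was called at 0.528 in shoot from only 21 reads, 0.297 in flower and 0.248 in silique, and was at 0.0635 from 547 reads in root, below the call.

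FLS1 397 was listed at exactly 1.00 in the 6 tissues with at least 20 reads (22 in shoot to 628 in root) and called in each. The other FLS1 sites varied. FLS1 508 was at 0.168 in root (484 reads), 0.320 in rosette leaf, 0.332 in flower and 0.406 in silique (173 reads), and FLS1 640 at 0.467 in root (271 reads), 0.797 in flower and 0.918 in silique (151 reads). At these 2 sites the lower fraction in root stood at a read depth above that of silique.

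**Figure D4:**
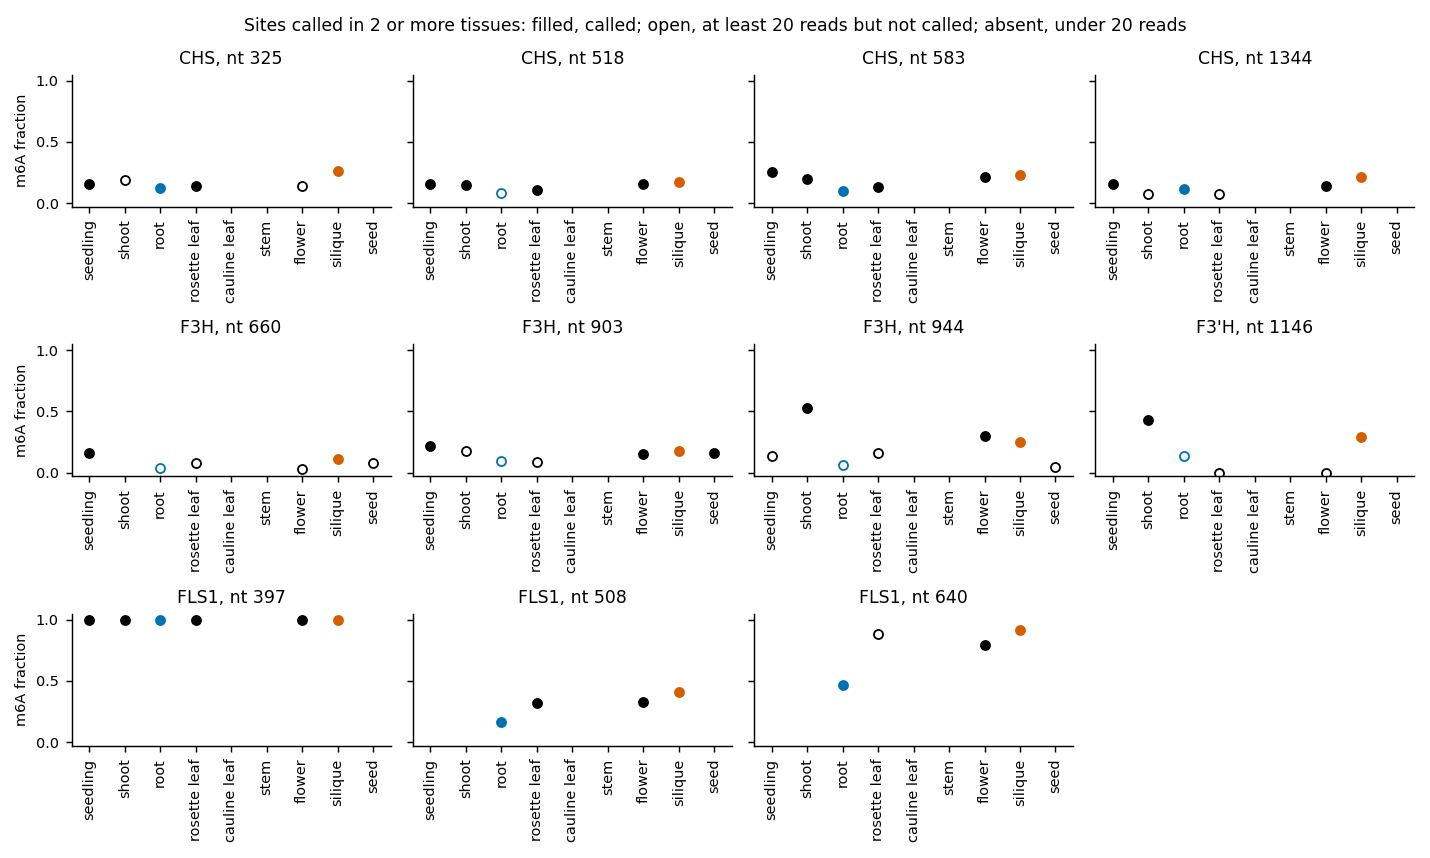
m6A fraction (y axis, 1 pooled value) in each tissue (x axis) at the 11 sites called in 2 or more tissues, with 1 panel per site named by its distance from the 5′ end of the transcript. Filled points were called, open points had at least 20 reads without a call, and tissues with fewer reads are left out; silique is orange and root is blue, and root lies below silique in all panels but FLS1 397.

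Over the 39 sites with at least 20 reads in both silique and root, the fraction was higher in silique at 36 (92.3%), with a median difference of 0.10. Over all 128290 such sites the share was 72.1% and the median difference 0.07. Where both tissues had a call, silique was higher at 5 of 6 sites of the flavonoid genes and at 66.5% of 21515 sites of all genes. Between silique and flower the same shares were 35 of 45 sites and 56.4% of all sites, and for sites called in both, 6 of 8 against 51.1%. Most sites of the flavonoid genes entered the list through a call in silique, so the shares over all deep sites lean towards silique.

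In rosette leaf, 9 sites of DFR, LDOX and BAN reached 21 to 38 reads and 4 sites of F3'H 20 to 27 reads, although the input libraries of that tissue held 1 read of DFR, none of LDOX and BAN and 6 and 1 of F3'H. Nearly all counts were in 1 treated library: replicate 1 held 114 counts of DFR, 136 of LDOX, 198 of BAN, 30 of TT8 and 249 of F3'H, and replicate 2 held 0, 1, 1, 0 and 11. These 13 are among the 41 sites of sufficient depth in rosette leaf. All 13 were at a fraction of 0, although they were at 0.0797 to 1.00 in silique. The same library held 62 genes of high silique level at 3.94% of that level, against 0.0474 to 0.173% in the 27 other libraries outside silique and flower, so site depths of these genes in rosette leaf were not read as expression.

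In the mta experiment, MTA transcripts were at 5.94 and 5.99 TPM in the Col input libraries and 3.74 and 2.98 in the mta libraries (-0.68 ± 0.14 on the log2(TPM + 1) scale, limma adjusted p = 0.0119). The deposited values are TPM, and they were tested with limma on log2(TPM + 1). Of the 10 flavonoid genes 8 passed a mean of 1 TPM, and all 8 were called lower in mta, while 20.6% of all genes were called lower and 6.31% higher. BAN was listed at 0 in all 4 libraries and TT8 was at 1.19 and 0.926 TPM in Col against 0.752 and 1.09 in mta. The median of all genes was itself at -0.14 on this scale. Relative to it the 8 genes lay between -0.86 and -0.08. In reads recovered from TPM and gene length, which were whole for 100% of the values under 50 reads (within 0.05 of a read), edgeR with TMM scaling gave a median of -0.01 for all genes, called 14.6% of genes lower and 16.3% higher, and called the same 8 of the 10 genes lower. Leaf genes moved the other way, with all 3 of RBCS1A, LHCB1.1 and LHCB2.1 called higher in mta (0.20 to 0.37), and of the root genes COW1 (-0.60) was called lower, SCR (-0.04) was not, and PYK10 was called lower in TPM (-0.17) but not on recovered reads (-0.01). Of the embryo markers, CRA1 (-0.55 ± 0.08, adjusted p = 0.00265) and CRC (-0.88 ± 0.13, adjusted p = 0.00296) were called lower in mta, as the flavonoid genes were, and also on recovered reads. The remaining embryo marker, OLEO1, was not called (-0.02 ± 0.22, limma adjusted p = 0.960), nor on recovered reads (0.11). The part of tissue makeup in the flavonoid values was not tested, and genotype and age cannot be told apart where the ages differed.

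The Col seedlings of this experiment and the day-7 seedlings of the tissues were far apart in DFR, LDOX and CHS: the latter held 0.390 and 0.573 TPM of DFR, 0.212 and 1.24 of LDOX and 98.6 and 97.0 of CHS, in a table normalized separately, and the Col values below are higher than these by more than mta differs from Col. Mean TPM in the day-7 seedlings was also below that in these Col seedlings for CHI (21.9), F3H (29.6), F3'H (3.12), FLS1 (6.17) and MYB12 (0.464). The cause was not tested.

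DFR, MYB12 and FLS1 changed most. DFR was at 27.5 and 32.8 TPM in Col and 14.8 and 14.3 in mta (-1.0 ± 0.10 on the log2(TPM + 1) scale, adjusted p = 0.000385). MYB12 was at 5.75 and 4.94 against 2.48 and 2.31 (-0.90 ± 0.15, adjusted p = 0.00391) and FLS1 at 44.8 and 46.1 against 28.1 and 22 (-0.84 ± 0.11, adjusted p = 0.00134). F3H fell from 116 and 116 to 67.5 and 70.6 TPM (-0.74 ± 0.04), LDOX from 31.5 and 35 to 20.3 and 21.3 (-0.65 ± 0.08), F3'H from 11.6 and 11.1 to 6.96 and 7.65 (-0.58 ± 0.10) and CHI from 43.4 and 43.8 to 31.1 and 31.0 (-0.48 ± 0.06). CHS, the most abundant, changed least, from 829 and 862 to 724 and 727 TPM (-0.22 ± 0.02). In none of the 8 genes did the Col and mta libraries overlap. In the test on recovered reads the difference of CHS was -0.06 ± 0.02 (edgeR adjusted p = 0.0157), against -0.90 ± 0.10 for DFR. In treated libraries MYB12 was no longer called (-0.79, adjusted p = 0.0583).

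**Figure D5:**
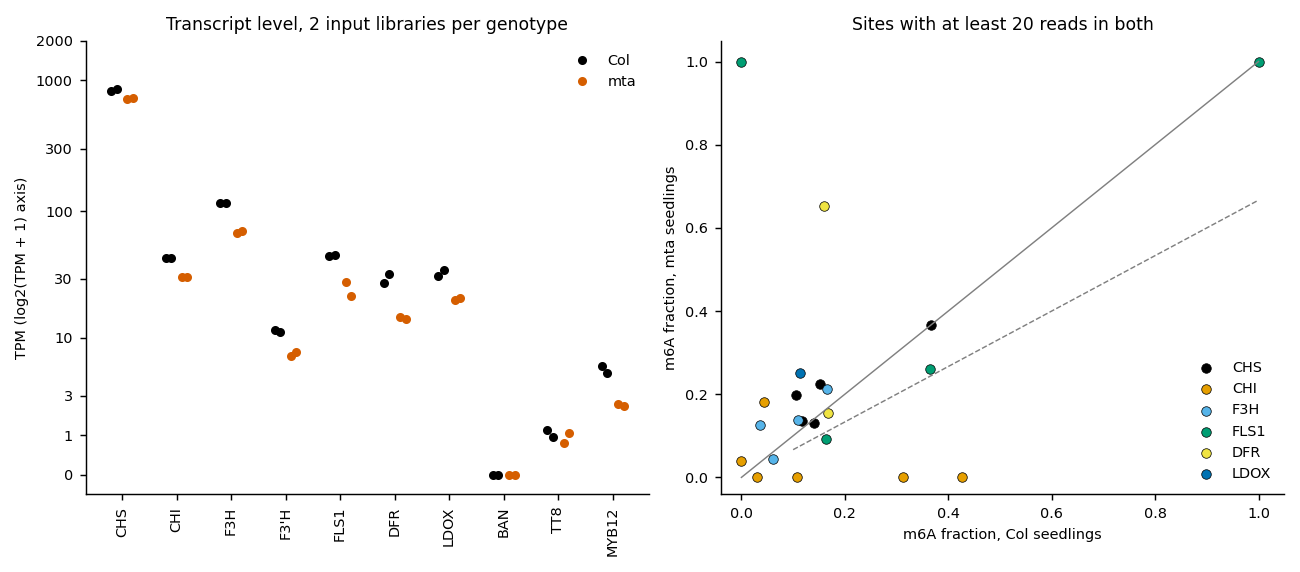
Left, TPM of the 10 genes in Col (black) and mta (orange) seedlings on a log2(TPM + 1) axis, with 1 point per input library (2 per genotype). Right, m6A fraction in mta (y axis) against Col (x axis) at the 22 sites with at least 20 reads in both, coloured by gene, with the line of equal fractions and, dashed, 2/3 of the Col fraction; 3 CHI sites and FLS1 1077 lie below the dashed line, which starts at a Col fraction of 0.1.

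Of the 36 other pathway genes 24 were tested, and 11 were called lower and 2 higher in mta, where 20.6 and 6.31% of all genes were. The largest changes were in MYBL2, a small MYB protein that represses anthocyanin synthesis, which was at 6.07 and 4.56 TPM in Col and 15.0 and 19.2 in mta (1.52 ± 0.16, adjusted p = 0.000531), and in the anthocyanin glycosyltransferase genes UGT79B1 (-1.25 ± 0.11, adjusted p = 0.000201) and UGT75C1 (-1.12 ± 0.11, adjusted p = 0.000408). The second gene called higher was PAL2 (0.24 ± 0.05, adjusted p = 0.00906). On recovered reads edgeR called 9 of 25 lower and 4 higher, against 14.6 and 16.3% of all genes. Of the positive regulators looked up after the values were seen, PAP1 (-0.55 ± 0.20, adjusted p = 0.0815) and TTG1 (-0.20 ± 0.07, adjusted p = 0.0825) were not called. HY5 was called lower (-0.43 ± 0.12, adjusted p = 0.0343), but not on recovered reads (edgeR adjusted p = 0.207).

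Sites of 6 of the 10 genes (CHS, CHI, F3H, FLS1, DFR and LDOX) were listed in the mta experiment, again with 1 pooled value per genotype and no replicate error. A site was counted as lower in mta where both genotypes had at least 20 reads, the Col fraction was at least 0.1 and the mta fraction was at most 2/3 of it. This held for 4 of 16 sites, or 25%, and for 42.8% of all sites that could pass. With a minimum of 50 reads it held for 2 of 10 sites (38.8% of all) and with a minimum of 10 reads for 6 of 20 (44.3% of all). In the opposite direction, chosen after the values were seen, 6 of 15 sites (40%) had a Col fraction of at most 2/3 of that in mta, against 37.1% of all. Over CDS sites of all genes these shares were 37.7 and 50.8%, and over 3′ UTR sites 48.8 and 16.4%, and all 16 sites of the flavonoid genes lay in the CDS.

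The sites lower in mta were 3 in CHI and 1 in FLS1, and none of the 3 in CHI was listed in the tissues. They are shown with the 3 AGACA sites that were higher in mta, picked after the values were seen.
CHI 442 (chr3:20431063-20431083, minus strand, exon 2, CDS): gagctaacAGAATctatcccg
CHI 605 (chr3:20430801-20430821, minus strand, exon 3, CDS): gtgaagctAAAGCtgtggaga
CHI 919 (chr3:20430242-20430262, minus strand, exon 4, CDS): gccaaagaGAACTgagaatga
FLS1 1077 (chr5:2805055-2805075, plus strand, exon 3, CDS): ccgtgaaaAGATTgttggacc
CHS 325 (chr5:4488790-4488810, plus strand, exon 1, CDS): atgagatcAGACAggctcaga
DFR 840 (chr5:17164855-17164875, minus strand, exon 5, CDS): cgatcataAGACAaggacagt
LDOX 631 (chr4:12005569-12005589, minus strand, exon 1, CDS): ttggcctaAGACAccaagtga
CHI 919 fell from 0.426 (75 reads) in Col to 0 (47 reads) in mta, CHI 605 from 0.312 (72 reads) to 0 (52 reads), and CHI 442 from 0.107 (92 reads) to 0 (59 reads), with the authors' mark in Col at 919 and 442 and not at 605. FLS1 1077 was at 0.163 (93 reads) in Col and 0.0924 (44 reads) in mta.

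None of the 5 CHS sites, the deepest of all with 611 to 1390 reads, was lower by this rule. CHS 325 was at 0.105 in Col and 0.198 in mta, CHS 583 at 0.153 and 0.224, CHS 518 at 0.116 and 0.135, CHS 534 at 0.366 and 0.367, and CHS 1344 at 0.140 and 0.130. FLS1 397, listed at 1.00 in every tissue in which it was called, was at 1.00 in both genotypes (106 and 57 reads). DFR 840 was at 0.160 (54 reads) in Col and 0.653 (26 reads) in mta. The others counted as higher in mta were LDOX 631 (0.112 and 0.250), F3H 640 (0.0354 and 0.126), CHI 592 (0.0441 and 0.181) and FLS1 952, which was listed at 0 in Col and 1.00 in mta without the mark in either. Transcript levels fell in all 6 of these genes. The median difference of the 16 sites, mta minus Col, was 0.0005 in the fraction. It was -0.0597 over all sites that could pass and -0.0216 over those in the CDS, where all 16 lay.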

How the data were processed

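RNA was extracted with TRIzol and poly(A) RNA captured before input and MjDim1-treated libraries were made from the same replicates. For the tissues the authors deposited whole-number counts per gene, and for the mta experiment TPM per gene. Aligner, counter, strand and the treatment of shared reads are stated in none of the sources used here. The m6A fraction per site, with read depth and a mark for passing sites, was deposited by the authors from an m6A-SAC-seq pipeline on TAIR 10, with replicates pooled and values calibrated on spike-in probes, so no intervals could be computed.

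Counts were tested in R 4.3.3 with edgeR 4.0.16 (filterByExpr with a minimum count of 10, TMM, quasi-likelihood fit over all 9 tissues, Benjamini-Hochberg adjustment over all genes, calls at 0.05). TPM were tested with limma 3.58.1 on log2(TPM + 1) for genes whose mean reached 1 TPM. A count test had been intended for the mta files, and edgeR on reads recovered from TPM served as an alternative. Sites were handled in Python 3.11.15 with pandas 2.3.3, and sequences were read from the RefSeq TAIR10.1 genome. The edgeR test of the tissue counts and the limma test of TPM were first run on simulated data.

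The members and lists were chosen with earlier results of these data known. Named are the 10 members, for each the 3 genes of highest Pearson correlation, at most 3 other pathway genes per contrast by absolute log2 fold change among those called, the highest site called in 2 or more tissues, and sites that pass the mta rule. Exceptions are given as chosen after the values were seen. Nothing states that replicates came from separate plants, so p-values measure the spread between these samples only. Alternatives were treated libraries, DESeq2 1.42.0, no filter, other depth minimums, a replicate block and leaving out each replicate.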

Additional observations from a re-analysis of the deposited data

Results flagged for a closer look

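A signal of genes that are high in silique appeared in a treated library of rosette leaf that the expression tests did not use. In treated replicate 1 of rosette leaf, 62 genes with a high level in silique and a low level in the other tissues stood at 3.94% of their silique level, against 0.0474 to 0.173% in the 27 other libraries outside silique and flower. BAN had 198 counts there, with 1 count in treated replicate 2 and none in the input libraries of rosette leaf.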

How the results depend on the processing

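In the treated libraries, members called higher than in the mean of the other 8 tissues went from 2 to 0 in shoot and from 4 to 9 in rosette leaf, where those called lower went from 1 to 0, and members called higher in shoot than in root went from 2 to 1. Without the treated rosette leaf library that held silique-high genes these rosette leaf counts stayed within 1.5 times the main ones. DFR was called lower in root than in the mean of the other tissues by DESeq2 and in the treated libraries, so that count went from 0 to 1. With total counts and no scaling factor, an alternative chosen after seeing the data, members called lower in shoot went from 2 to 1 and members called higher in seed from 1 to 0. On recovered reads edgeR called 2991 genes higher in mta against 1162 by limma, and at a minimum of 50 reads 2 of 10 member sites were lower in mta and at 10 reads 6 of 20, instead of 4 of 16. The cause of these changes was not tested. In the flavonoid genes no log2 difference of silique or root against the other tissues, or of mta against Col, changed sign in the alternatives fitted. Other contrasts and the other pathway genes were not checked as a set for direction. Of the latter, C4H was called lower in mta by limma (-0.11, adjusted p = 0.0309) but was at 0.05 on recovered reads, where it was not called. Mean TPM, which has no scaling factors, turned 2 steps between neighbouring tissues that had passed the test, rosette leaf over flower in F3H and seed over seedling in F3'H. CPM without scaling factors turned the F3H step but not the F3'H step.

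Replicates with the same number did not deviate together (r from -0.0226 to 0.0486 over 36 pairs of tissues, 0.0587 for Col and mta), and a fit with a replicate block left all 59 results on the same side, with 3634 genes lower and 1132 higher in mta. Leaving out each replicate in turn gave 2707 to 2913 genes lower and 792 to 997 higher in mta, with all 8 members lower each time. Site values pool the replicates, so neither could be run for sites, and sites of 10 to 19 reads entered only the counts at a minimum of 10.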
